A study of Mus musculus with 6 samples.

Results

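Genes of the extracellular matrix other than collagens were examined in the mouse counts of livers carrying a human hepatocellular carcinoma (HCC). The set held 40 genes, chosen by name as matrix glycoproteins, laminins and proteoglycans, out of 56884 mouse genes in the table. The choice was made with earlier results of these data known. All 40 had a total of at least 10 counts and entered the test, as did 18018 mouse genes in all. Of the 40, 30 were placed with the interstitial matrix and 10 with the basement membrane. The 6 libraries were made from liver tissue of male athymic BALB/c (nu/nu) mice, labelled as wild type, which received cells of the human HCC line QGY-7703 in the liver at 6 weeks of age. The cells were mixed with Matrigel, a protein extract of basement membrane. An AAV8 vector was injected through the tail vein 1 week later, and tissue was taken after another 3 weeks. The 3 libraries of the siControl group came from mice given a vector with a control siRNA, and the 3 of the siAATF group from mice given a vector with an siRNA against mouse Aatf, each numbered 1 to 3. The vector carries the TBG promoter, which is active in hepatocytes rather than in fibroblasts or endothelial cells. Athymic mice lack most T cells. The sources used here do not say that each library came from a different mouse, and p-values then measure the spread between these libraries, which may be technical.

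The interstitial matrix lies between cells and is built from fibres and the proteins that bind them. Fibronectin and the fibrillin and elastin fibres hold the tissue together, latent TGF-β binding proteins store growth factor on the fibrils, and matricellular proteins such as thrombospondins and SPARC act on cells rather than bear load. The basement membrane is a thin sheet under epithelium and around vessels, in which laminin trimers of an alpha, a beta and a gamma chain are joined to type IV collagen by nidogens and heparan sulfate proteoglycans. The healthy liver sinusoid has no complete basement membrane, hepatocytes secrete plasma fibronectin, and activated stellate cells and fibroblasts make much of the matrix of a diseased liver.

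Mouse counts totalled 213022 to 913584 in siControl and 11835898 to 42563694 in siAATF. Mouse reads thus made up 0.778% to 1.93% of the human and mouse total in siControl and 97.9% to 99% in siAATF. Every comparison here therefore sets libraries of mostly human reads against libraries of mostly mouse reads. The siRNA and this difference in tissue make-up cannot be told apart. A mouse gene without counts could still reach 3 counts, equal to between 3.28 and 14.1 CPM (counts per 1000000 mouse counts) for the controls and between 0.0705 and 0.253 CPM with siAATF. Such limits take in counting error alone, because PCR copies are not separate molecules. They are on raw mouse totals and are not on the scale of the TMM-normalized CPM given further on. Values of single libraries are given in the order 1, 2 and 3. A log2FC is the fitted log2 fold change of siAATF over siControl, and ± after it is 1 standard error. Aatf itself stood at 9.62, 2.41 and 12.8 CPM under siControl and 13.2, 22 and 18.8 CPM under siAATF after TMM normalization (log2FC 0.93 ± 0.47, adjusted p = 0.152), which scaling by mouse library size alone turned to -0.91. On raw mouse totals the direction of Aatf was thus lower in siAATF and with TMM it was not, and all directions refer to the labels. The TMM factors were 1.77 to 1.96 in siControl and 0.419 to 0.682 in siAATF, so the choice between TMM and raw mouse totals shifts every gene.  In what follows, CPM are after TMM normalization, a scaling that sets the bulk of genes of the libraries equal, unless another scale is named.

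With TMM, 33 of the 40 matrix genes fell in the siAATF libraries, with an adjusted p under 0.05 over all mouse genes, and 0 rose. Among all 18018 genes tested, 14.4% were called lower and 17.6% higher by the same rule. Since the members were chosen with earlier results known, this contrast with all genes is a description and not a test. The 33 and 0 were the same at an unadjusted p under 0.05, and DESeq2 and limma-voom also gave 33 lower and 0 higher. By the criteria of the study, an unadjusted p under 0.05 and an absolute log2 fold change of at least 2, 32 were lower and 0 higher, against 13.1% and 13.6% of all genes. Every siAATF library lay below every siControl library for 34 of the 40 members, and for 18.1% of all genes. The median log2 fold change of the members was -3.07, and it was 0.50 for all genes. Of the 30 interstitial genes 24 fell, with a median of -3.26, and of the 10 basement membrane genes 9 fell, with a median of -2.93. The 7 that did not pass were Fn1, Fbln5, Efemp1, Fmod, Ogn, Prelp and Agrn. With mouse library size alone 38 were lower, since Fn1, Efemp1, Fmod, Prelp and Agrn then passed too.

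**Figure D1:**
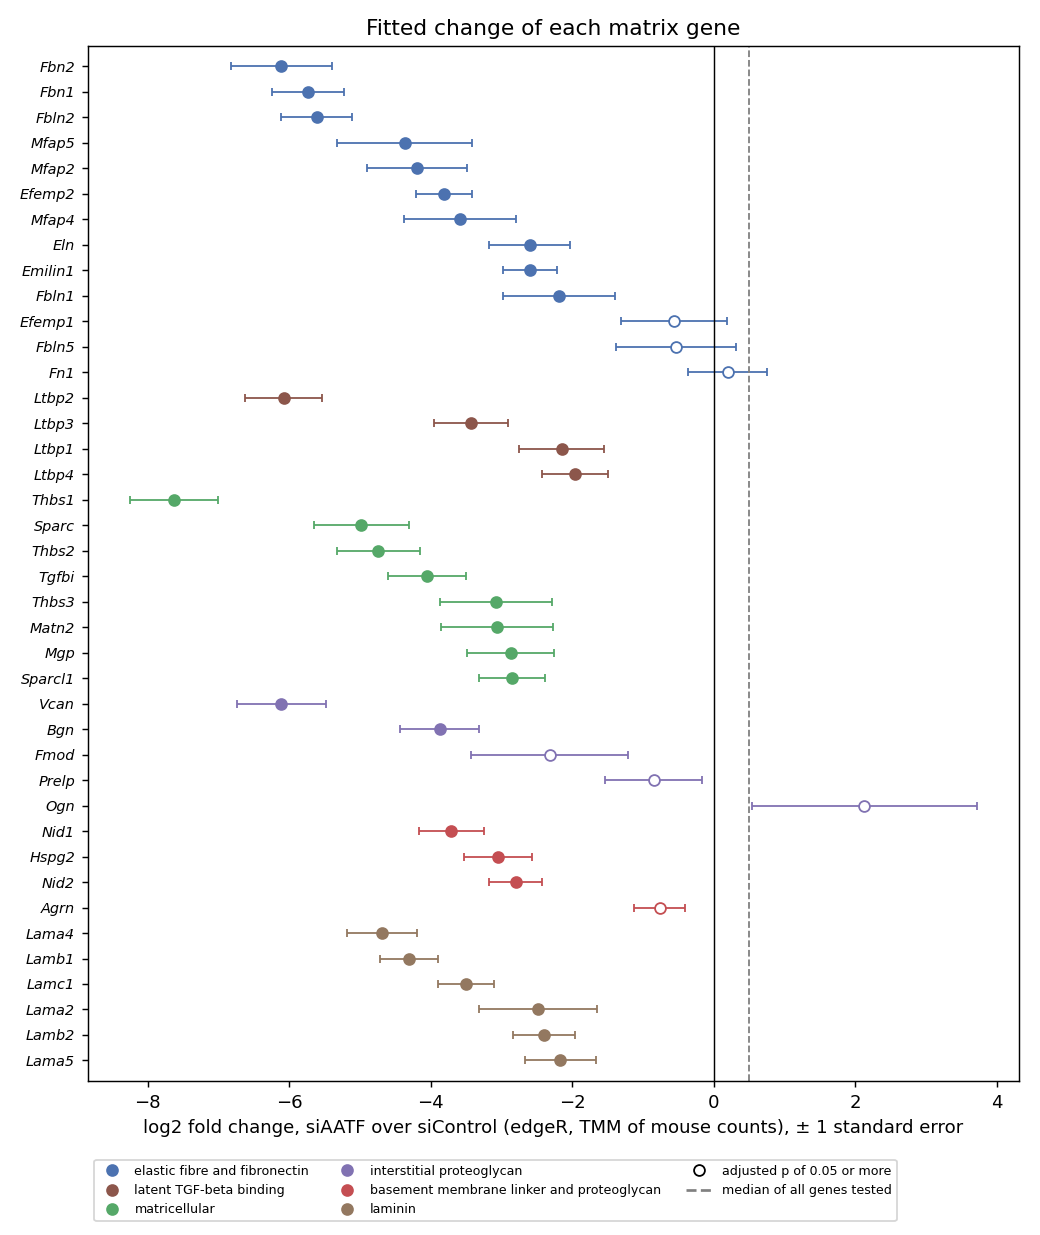
Fitted log2 fold change of each of the 40 matrix genes (siAATF over siControl, horizontal axis) with 1 standard error on each side, coloured by role; filled points passed an adjusted p of 0.05, open points did not, and the dashed line is the median of all genes tested. The values run from -7.63 for Thbs1 to 2.13 for Ogn, and 27 of the directions shown turn when counts are scaled to human and mouse counts together.

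These directions are relative to mouse counts. When each library was scaled to all of its gene counts, human and mouse together, 27 of the 40 turned to the other direction, 3 members fell (Thbs1, Ltbp2 and Vcan) and 15 rose, and the median of all mouse genes was 4.66. The median of the members minus that of all genes was -3.57 with TMM. Another scaling moves members and other genes nearly alike by construction, and settings other than scaling gave -3.18 (limma-voom) to -4.19 (without siAATF replicate 1). A sample of whole tissue cannot tell fewer cells of a type from less RNA per cell. Human reads placed on mouse genes would weigh most in siControl, where human counts prevailed, and this was not tested.

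Promoters of 28 members were found in the RefSeq table of GRCm38.p6, as 37 windows of 250 bases before a start. The 4 shown belong to 3 genes that fell, of the matricellular, latent TGF-β binding and basement membrane groups, and to 1 gene that did not pass. Capitals mark matches on either strand to 6 short motifs. These were TGANTCA (AP-1), TGACGTCA (CRE), GGAATG (TEAD), CAGACA (SMAD), TATAAA for a TATA box and GGGCGG (GC box), no one of which is contained in another.
Sparc, chr11:55420081-55420330, minus strand: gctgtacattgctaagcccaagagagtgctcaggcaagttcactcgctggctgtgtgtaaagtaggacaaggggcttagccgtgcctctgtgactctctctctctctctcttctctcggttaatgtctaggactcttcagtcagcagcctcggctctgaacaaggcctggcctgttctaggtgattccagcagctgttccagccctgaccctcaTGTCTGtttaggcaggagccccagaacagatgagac
Ltbp2, chr12:84876492-84876741, minus strand: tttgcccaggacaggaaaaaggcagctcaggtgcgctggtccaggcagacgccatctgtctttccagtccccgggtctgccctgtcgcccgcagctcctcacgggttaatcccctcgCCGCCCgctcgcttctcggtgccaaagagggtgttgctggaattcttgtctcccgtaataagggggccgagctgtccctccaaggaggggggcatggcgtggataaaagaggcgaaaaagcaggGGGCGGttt
Nid1, chr13:13437352-13437601, plus strand: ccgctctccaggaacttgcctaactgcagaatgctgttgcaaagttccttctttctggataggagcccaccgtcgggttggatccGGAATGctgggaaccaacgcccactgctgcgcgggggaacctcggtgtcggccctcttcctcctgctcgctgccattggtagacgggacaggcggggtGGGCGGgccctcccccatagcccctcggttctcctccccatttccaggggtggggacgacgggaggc
Prelp, chr1:133921402-133921651, minus strand: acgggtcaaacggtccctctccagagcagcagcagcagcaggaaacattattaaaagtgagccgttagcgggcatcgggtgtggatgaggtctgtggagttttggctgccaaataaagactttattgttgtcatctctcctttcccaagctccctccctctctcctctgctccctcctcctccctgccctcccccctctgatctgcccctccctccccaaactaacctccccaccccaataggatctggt
The window of Sparc held a SMAD match that began 36 bases before the start. That of Ltbp2 held GC boxes at 133 and 9 bases, and that of Nid1 a TEAD match at 165 bases and a GC box at 67. The window of Prelp held none of the 6. Over the member windows, 62.2% had a GC box, 24.3% a SMAD match, 8.11% a TEAD match, 5.41% a TATA box, and 2.7% each an AP-1 and a CRE match. Among all 32851 windows of this length the shares were 32.7%, 17.1%, 12.6%, 12.4%, 6.75% and 1.55%. These windows are on another build than the gene positions given here in GRCm39. Windows of 1 gene can overlap, and a match describes letters and is not a binding site.

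Of the 13 genes of fibronectin and elastic fibres, 10 fell with TMM, of which Eln, Emilin1, Fbln1, Efemp2, Mfap2 and Mfap4 turned with human and mouse counts together. The median of the 13 was -3.59. The fibrillins, which form the microfibrils on which elastin is laid down, were among the largest falls. Fbn1 (ENSMUSG00000027204, chromosome 2 of GRCm39, 125142514 to 125349913, reverse strand) had 60.9, 118 and 138 CPM under siControl and 2.48, 1.01 and 2.11 CPM under siAATF. The lowest siControl library was thus far above the highest siAATF library, with means of 106 ± 40.1 and 1.86 ± 0.766 (SD, n = 3) and a log2FC of -5.73 ± 0.51 (adjusted p = 2.43e-05). Fbn2 (ENSMUSG00000024598), a fibrillin best known from development, rested on 20, 9 and 16 counts under siControl and 6, 2 and 2 counts under siAATF. Its fitted log2FC was -6.11 ± 0.71 (adjusted p = 7.77e-05), a value that few counts support. After thinning all libraries to the smallest mouse total Fbn2 no longer passed (-2.66, adjusted p = 0.0788). Fbln2, a fibulin that links fibronectin, elastin and laminin networks, had 115, 57.9 and 114 CPM under siControl and 2.79, 1.81 and 1.22 CPM under siAATF (log2FC -5.61 ± 0.50, adjusted p = 2.41e-05), and no library of 1 group reached the other group. Efemp2 (fibulin-4), which guides elastin and lysyl oxidase to the fibre, fell from 69.9 ± 14 to 4.99 ± 1.57 CPM (SD, n = 3), with a log2FC of -3.81 ± 0.40. The microfibril-associated genes Mfap2, Mfap4 and Mfap5 fell, with log2FC of -4.19, -3.59 and -4.37, and Mfap4 stood at -5.74 without siAATF replicate 1 and at -2.98 without siAATF replicate 3. Mfap2 did not pass after thinning (-4.34, adjusted p = 0.0682). Eln, elastin itself, and Emilin1, which sits between elastin and the microfibrils, both fell by 2.60. Emilin1 was even across the siAATF libraries at 21.9, 21.8 and 21.7 CPM, against 109, 121 and 165 CPM in siControl. Fbln1 was lower at 7.89 ± 2.72 against 1.7 ± 1.9 CPM (SD, n = 3), but its adjusted p of 0.0499 was at the threshold and it passed in only 1 of the 6 fits that left out a library, the one without siAATF replicate 1 (log2FC -3.69).
In this group 3 members did not pass, and fibronectin is the best measured of them. Fn1 (ENSMUSG00000026193, chromosome 1 of GRCm39, 71624679 to 71692359, reverse strand) had 895, 620.1 and 742 CPM under siControl and 617, 495 and 1483 CPM under siAATF. Replicate 3 of siAATF was above every other library, and the groups overlapped. The means were 752 ± 138 and 865 ± 538 CPM (SD, n = 3), with a log2FC of 0.20 ± 0.56 (adjusted p = 0.815). Its sign was not fixed, since it was -0.12 with upper-quartile scaling, -1.61 with mouse library size alone, 4.41 with human and mouse counts together and -0.37 without siAATF replicate 3. Of these, the value with mouse library size alone passed as lower (adjusted p = 0.0476) and the one with human and mouse counts together as higher (adjusted p = 2.09e-05). Fbln5 (fibulin-5), which binds elastin to integrins, had 8.82, 2.41 and 2.79 CPM under siControl and 7.31, 1.01 and 1.55 CPM under siAATF. Replicate 1 was the highest in both groups, which overlapped, and the log2 fold change of -0.53 had a standard error of 0.85. Efemp1 (fibulin-3) also overlapped, with 8, 0 and 17 counts in the controls and 100, 8 and 134 with siAATF (log2FC -0.56 ± 0.75). Efemp1 passed as lower with mouse library size alone (-2.35, adjusted p = 0.0157), and with human and mouse counts together Fbln5 (3.82) and Efemp1 (3.58) both passed as higher.

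All 4 latent TGF-β binding genes fell with TMM, and all but Ltbp2 turned with human and mouse counts together. Ltbp2, which does not bind latent TGF-β and instead sits on fibrillin, fell most. Ltbp2 (ENSMUSG00000002020, chromosome 12 of GRCm39, 84829986 to 84923306, reverse strand) had 120.3, 67.6 and 124 CPM under siControl and 2.38, 1.41 and 0.72 CPM under siAATF (log2FC -6.08 ± 0.55, adjusted p = 2.54e-05). It was among the 3 members that were still called lower when human and mouse counts were scaled together (-1.82). Ltbp3, needed for TGF-β storage in bone and lung, had 29.7, 12.1 and 39.6 CPM under siControl and 3.48, 1.01 and 2.99 CPM under siAATF, also without overlap (log2FC -3.43 ± 0.53, adjusted p = 0.000409). Ltbp1, which carries latent TGF-β to the matrix, stood at 12, 12.1 and 13.4 CPM under siControl and 4.83, 0.806 and 2.38 CPM under siAATF. The control libraries were close to each other and the siAATF libraries were spread, with a log2FC of -2.15 ± 0.60 (adjusted p = 0.0162). Ltbp1 no longer passed without siControl replicate 3 (-2.12) or after thinning (-2.38, adjusted p = 0.118). Ltbp4, which also serves elastic fibres, had the smallest fall of the 4, at -1.96 ± 0.47 (adjusted p = 0.00729), from 49.8 ± 7.22 to 12.6 ± 8.55 CPM (SD, n = 3).
The genes of the factors that these proteins hold, or that hold them on cells, were measured beside them, and all 5 fell with TMM, with a median of -3.70, and turned with human and mouse counts together. Tgfb1, Tgfb2 and Tgfb3, the ligands, fell, with log2FC of -3.92, -2.82 and -4.31. Lrrc32 and Nrros, which tether latent TGF-β to the surface of cells, fell, with log2FC of -2.95 and -3.70. Summed, the 5 stood at 248 to 274 CPM under siControl and 18.5 to 26.9 CPM under siAATF.

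All 8 matricellular and related glycoprotein genes fell with TMM, with a median of -3.57, and Sparcl1, Thbs3, Matn2, Mgp and Tgfbi turned with human and mouse counts together. Thbs1, thrombospondin-1, which activates latent TGF-β and restrains vessel growth, had the largest fall of the 40. Thbs1 (ENSMUSG00000040152, chromosome 2 of GRCm39, 117942357 to 117957614, forward strand) had 220.5, 349.9 and 292 CPM under siControl and 1.93, 0.403 and 1.61 CPM under siAATF. The siAATF values rested on 56, 2 and 29 counts, and no library came near the other group. The means were 288 ± 64.8 and 1.31 ± 0.805 CPM (SD, n = 3), and the fitted log2FC was -7.63 ± 0.62 (adjusted p = 2.13e-05), a fitted fold of 198 lower. With human and mouse counts scaled together Thbs1 still fell, by 3.22. Thbs2, its close relative, had 51.3, 55.5 and 67.4 CPM under siControl and 3.89, 0.403 and 1.55 CPM under siAATF (log2FC -4.74 ± 0.59, adjusted p = 0.000109). Thbs3 had 6, 1 and 17 counts in the controls and 25, 5 and 6 with siAATF. Its log2 fold change of -3.08 passed (adjusted p = 0.01), but not without siControl replicate 3 (-2.44).
Sparc, which binds collagen and shapes its assembly, was the most abundant member in siControl. Sparc (ENSMUSG00000018593, chromosome 11 of GRCm39, 55285326 to 55314009, reverse strand) had 3089, 4594 and 4251 CPM under siControl and 143, 119.9 and 115 CPM under siAATF. The siAATF libraries lay close together and the fitted fall was 31.6-fold (log2FC -4.98 ± 0.67, adjusted p = 0.000193). Sparcl1, its relative, also called hevin, fell by 2.85 ± 0.46 (adjusted p = 0.000547), from 56.3 ± 21.6 to 7.49 ± 3.73 CPM (SD, n = 3). Tgfbi, an adhesive protein named for its induction by TGF-β, had 306, 437 and 409 CPM under siControl and 34.3, 9.47 and 25.1 CPM under siAATF (log2FC -4.05 ± 0.55, adjusted p = 0.000199). Mgp, an inhibitor of calcification, fell by 2.87 (adjusted p = 0.00356), with siControl replicate 1 the lowest control and siAATF replicate 1 the highest siAATF library at 9.38 CPM. Matn2, a matrilin that bridges matrix filaments, fell by 3.06 (adjusted p = 0.0101) and did not pass without siControl replicate 3 (-2.45).

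**Figure D2:**
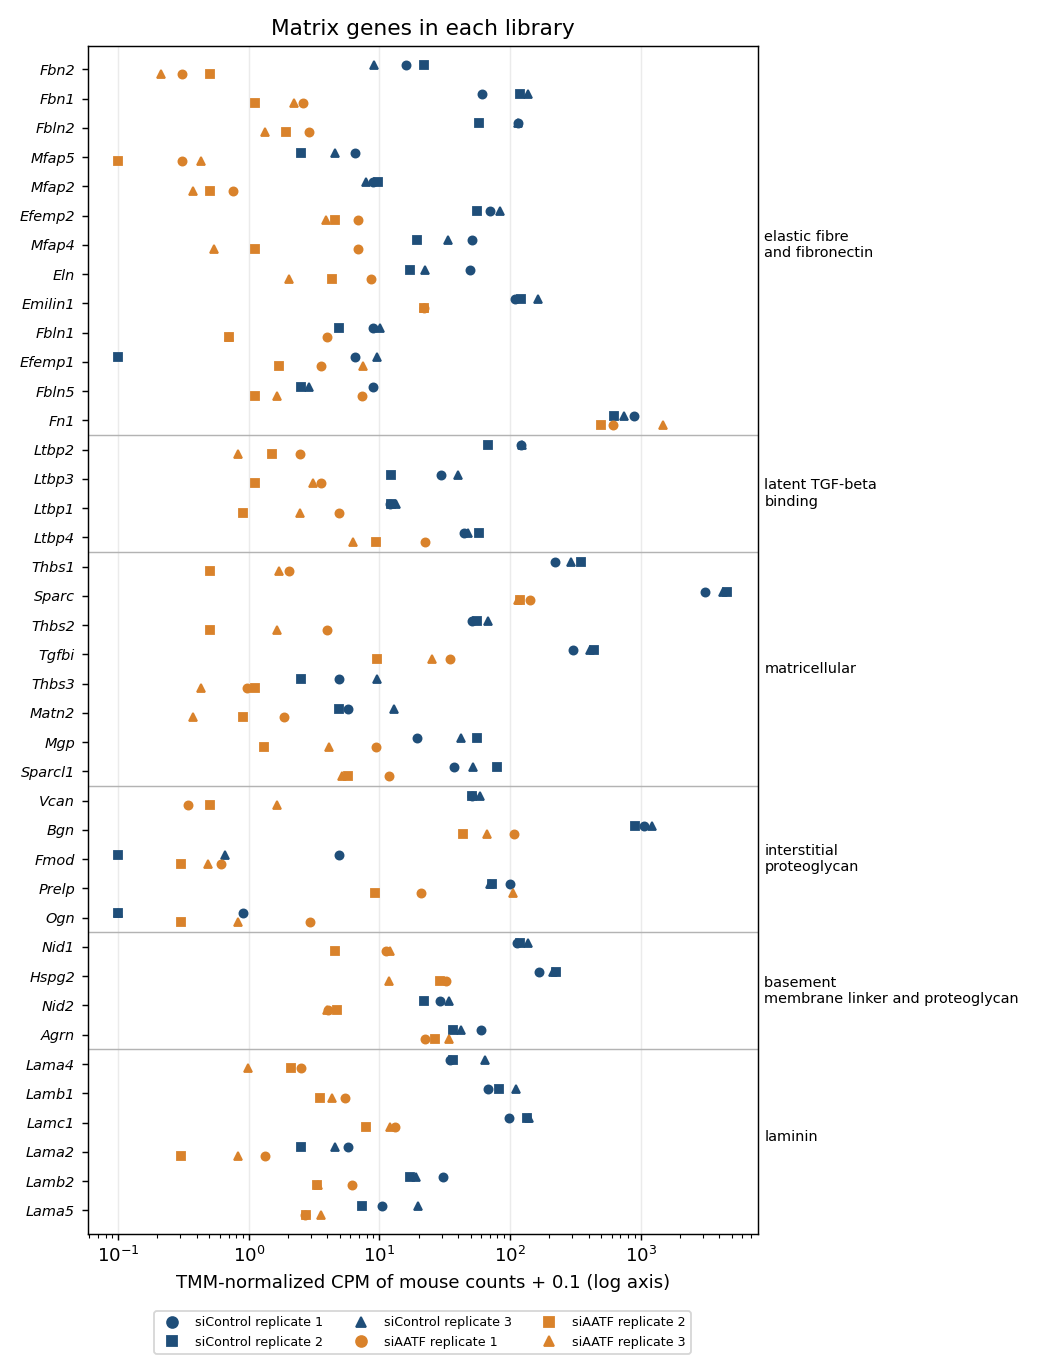
TMM-normalized CPM of mouse counts plus 0.1 (log axis) of each of the 40 matrix genes (rows, grouped by role) in each of the 3 siControl and 3 siAATF libraries, 1 point per library. On this scale all siAATF points in 34 rows lie left of all siControl points, and Fn1, Fbln5, Efemp1, Fmod, Prelp and Ogn are the rows that overlap.

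The 5 interstitial proteoglycans divided, with 2 that fell with TMM, of which Bgn turned with human and mouse counts together, and 3 that did not pass. Vcan, versican, a large chondroitin sulfate proteoglycan of provisional matrix, had 51.3, 50.7 and 58.5 CPM under siControl and 0.241, 0.403 and 1.55 CPM under siAATF. The control values were close together, replicate 3 was the highest of siAATF, and the log2FC was -6.11 ± 0.63 (adjusted p = 4.61e-05), or -7.45 without siAATF replicate 3 and -5.52 without siAATF replicate 1. Bgn, biglycan, a small leucine-rich proteoglycan, fell from 1055, 909.7 and 1212 CPM to 106, 43.3 and 66.8 CPM (log2FC -3.87 ± 0.56, adjusted p = 0.000289).
Prelp, a small leucine-rich protein that anchors basement membrane to connective tissue, had 99.4, 72.4 and 70.2 CPM under siControl and 20.6, 9.07 and 105 CPM under siAATF. Replicate 3 of siAATF was above the highest control, and the other 2 were below all controls. Its log2FC was -0.85 ± 0.69 (adjusted p = 0.365). It passed as lower without siAATF replicate 3 (-2.35), with mouse library size alone (-2.66), after thinning all libraries to the smallest mouse total (-1.89) and with the replicate number as a block (-1.55), and as higher with human and mouse counts together (3.38). Fmod, fibromodulin, which binds collagen fibrils, had 6, 0 and 1 counts in the controls and 15, 1 and 7 with siAATF (log2FC -2.32 ± 1.11, adjusted p = 0.133). Without siControl replicate 1 its log2FC was -0.13. Ogn, osteoglycin, had 1, 0 and 0 counts in the controls and 83, 1 and 13 with siAATF. From the pooled counts, 1 against 97, the ratio of siAATF to siControl after TMM was 6.44 with an exact 95% interval of 1.13 to 257 for counting error, and the fit gave a log2FC of 2.13 ± 1.59 (adjusted p = 0.326). The log2FC of Ogn was 0.59 with mouse library size alone and 0.77 to 6.87 over the fits that left out a library. Ogn passed as higher with human and mouse counts together (6.08, adjusted p = 3.78e-06). Fmod passed as lower with mouse library size alone (-3.99, adjusted p = 0.00917). Both genes rested on at most 6 counts in any siControl library.
Small leucine-rich proteoglycan genes lie in clusters in the genome. Prelp (chromosome 1 of GRCm39, 133838042 to 133849152, reverse strand) and Fmod (chromosome 1 of GRCm39, 133964992 to 133976015, forward strand) are 116 kb apart on chromosome 1. Ogn (chromosome 13 of GRCm39, 49761522 to 49777977, forward strand) lies 15.2 kb from Omd on chromosome 13, with Aspn and Ecm2 following, and Omd, Aspn and Ecm2 did not pass either, at log2 fold changes of 1.08, -0.29 and -1.92 on at most 3 counts in any siControl library.

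In the basement membrane group, 3 of the 4 linkers and proteoglycans fell with TMM, Agrn did not pass, and all 4 turned with human and mouse counts together. The nidogens join laminin to type IV collagen. Nid1 (ENSMUSG00000005397, chromosome 13 of GRCm39, 13612136 to 13686854, forward strand) had 112, 118 and 138 CPM under siControl and 11.2, 4.43 and 12 CPM under siAATF (log2FC -3.71 ± 0.46, adjusted p = 0.000108). Nid2 had 28.9, 21.7 and 34 CPM under siControl and 3.96, 4.63 and 3.88 CPM under siAATF (log2FC -2.80 ± 0.38, adjusted p = 0.000193). Neither nidogen overlapped between the groups. Hspg2, perlecan, the main heparan sulfate proteoglycan of vessel walls, had 165, 224 and 214 CPM under siControl and 32.2, 29 and 11.7 CPM under siAATF (log2FC -3.05 ± 0.48, adjusted p = 0.000453). Agrn, agrin, the other large heparan sulfate proteoglycan of the sheet, had 60.1, 36.2 and 41.8 CPM under siControl and 22.3, 26.4 and 33.8 CPM under siAATF. Its groups did not overlap, but the difference was small, with a log2FC of -0.76 ± 0.36 (adjusted p = 0.128). Agrn passed as lower with upper-quartile scaling (-1.04) and mouse library size alone (-2.58), and as higher with human and mouse counts together (3.43, adjusted p = 2.07e-06).

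All 6 laminin chains fell with TMM, with a median of -2.99, and all but Lama4 and Lamb1 turned with human and mouse counts together. Laminin trimers of the alpha-4 chain with beta-1 and gamma-1 are found in the walls of vessels. Lama4 (ENSMUSG00000019846, chromosome 10 of GRCm39, 38841511 to 38986184, forward strand) had 34.5, 36.2 and 64.1 CPM under siControl and 2.41, 2.01 and 0.887 CPM under siAATF (log2FC -4.69 ± 0.50, adjusted p = 5.26e-05). Its beta partner Lamb1 had 67.4, 82 and 111 CPM under siControl and 5.31, 3.42 and 4.21 CPM under siAATF (log2FC -4.31 ± 0.41, adjusted p = 3.07e-05). Lamc1, the gamma chain of most laminins, had 98.6, 135 and 139 CPM under siControl and 13, 7.86 and 11.9 CPM under siAATF (log2FC -3.50 ± 0.40, adjusted p = 7.77e-05). These 3 chains had the largest fitted falls among the 6, and none overlapped between the groups. The beta-2 chain Lamb2 fell by 2.40 ± 0.44 (adjusted p = 0.00137), from 22.1 ± 7.32 to 4.19 ± 1.63 CPM (SD, n = 3). Lama5, the broadly expressed alpha chain of mature basement membranes, had 10.4, 7.24 and 19.5 CPM under siControl and 2.59, 2.62 and 3.49 CPM under siAATF (log2FC -2.17 ± 0.50, adjusted p = 0.00552), and did not pass without siControl replicate 3 (-1.66). Lama2, the alpha chain best known from muscle, rested on 7, 1 and 8 counts in the controls and 36, 1 and 13 with siAATF. Its log2FC of -2.48 ± 0.83 (adjusted p = 0.0382) was lost in 4 of the 6 fits that left out a library, those without siControl replicate 1 (-2.26), siControl replicate 3 (-2.49), siAATF replicate 2 (-2.08) and siAATF replicate 3 (-2.32).
Other chains of the family were not part of the set. Of Lama1, Lama3, Lamb3 and Lamc3, only Lama3 passed. Lama3, an epithelial chain, rose from 1.6, 2.41 and 0.557 CPM to 7.86, 7.25 and 4.21 CPM (log2FC 2.37 ± 0.76, adjusted p = 0.0311), on 1 or 2 counts in each siControl library.

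The order of the members by level changed between the groups. Levels of different genes were compared as CPM per kilobase of exon. In siControl the highest was Sparc at 1462 ± 289.9 (SD, n = 3), followed by Bgn at 438 ± 62.6, Tgfbi at 141 ± 25.5, Fn1 at 88.7 ± 16.2 and Mgp at 63 ± 29.7. Sparc, Bgn and Tgfbi were each apart from the next by more than their spread, whereas Fn1 and Mgp were within it. In siAATF, Fn1 came first at 102 ± 63.5, followed by Sparc at 46.3 ± 5.46, Bgn at 29.8 ± 13.2, Prelp at 12.4 ± 14.4 and Tgfbi at 8.46 ± 4.62. Fn1 was above Sparc in each siAATF library, with ratios per kilobase of 1.39, 1.33 and 4.13. The SD of Prelp spanned the distance to Tgfbi, and Prelp was above Tgfbi in replicate 3 only. Thbs1 went from the 6th to the 32nd place, and Agrn from the 24th to the 8th.
Within each library, the 40 genes can also be given as shares of their summed counts per kilobase, which no scaling between libraries enters. Sparc made up 52.3%, 62% and 56.5% in siControl and 21.3%, 28.6% and 13.3% in siAATF. Fn1 made up 4.86%, 2.69% and 3.16% in siControl and 29.5%, 38% and 54.9% in siAATF. The groups did not overlap for either gene. The 10 basement membrane genes together took 3.16% to 3.74% in siControl and 3.55% to 6.42% in siAATF.

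**Figure D3:**
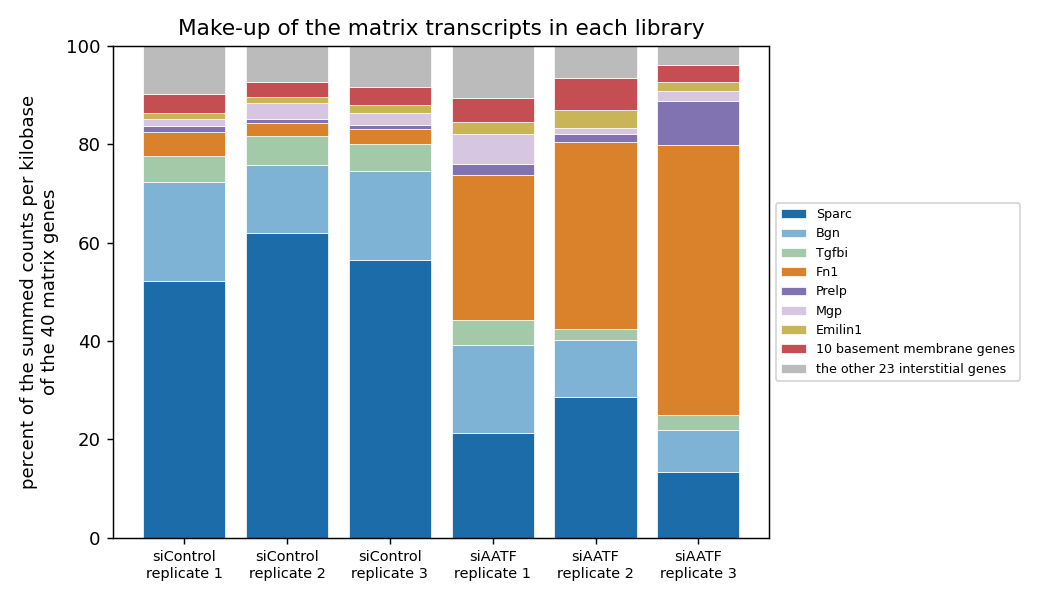
Make-up of the summed counts per kilobase of the 40 matrix genes in each library, in percent, for 7 interstitial genes, the 10 basement membrane genes and the other 23 interstitial genes. Sparc is the largest part of each siControl bar (52.3% to 62%), and Fn1 is the largest part of each siAATF bar (29.5% to 54.9%).

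The basement membrane was set against the interstitial matrix by the ratio of their summed counts per kilobase within each library. The ratio was 0.0386, 0.0326 and 0.0388 under siControl and 0.052, 0.0686 and 0.0368 under siAATF. The groups overlapped, and the mean log2 difference of 0.48 stood beside a pooled SD of 0.33. Fn1 weighs on this ratio. Without it, the ratio was 0.0335 to 0.0407 in siControl and 0.0754 to 0.115 in siAATF, with no overlap and a log2 difference of 1.25. The direction turned to -0.29 without the most abundant gene of each class (Sparc and Nid1), to -0.23 without division by length, and to -1.91 when Fbln1, Fbln2, Sparc, Matn2 and Prelp, which also occur at basement membranes, were moved to that class. A difference between the 2 kinds of matrix as a whole was therefore not established, and the values give no order of the classes.
Ratios were also taken between members of 1 family. The pairs were chosen after their values were seen, so the ratios and their lack of overlap are a description without a test. The ratio of Lama5 to Lama4, per kilobase, was 0.106 to 0.162 in siControl and 0.569 to 2.09 in siAATF. Lama5 had 13, 3 and 35 counts in siControl. Lamb2 to Lamb1 went from 0.177 to 0.47 in siControl to 0.806 to 1.19 in siAATF. Agrn to Hspg2 was 0.294 to 0.664 in siControl and 1.26 to 5.27 in siAATF, so that agrin was below perlecan in each siControl library and above it in each siAATF library. Ltbp4 to Ltbp2 was 0.431 to 1.01 in siControl and 7.72 to 11 in siAATF, the widest shift among these pairs. Sparcl1 to Sparc moved from 0.0118 to 0.0171 in siControl to 0.0432 to 0.0813 in siAATF, so that Sparc stayed the more abundant of the pair in each library. Nid2 to Nid1 was 0.229 to 0.321 in siControl and 0.403 to 1.31 in siAATF. None of these ranges overlapped.

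**Figure D4:**
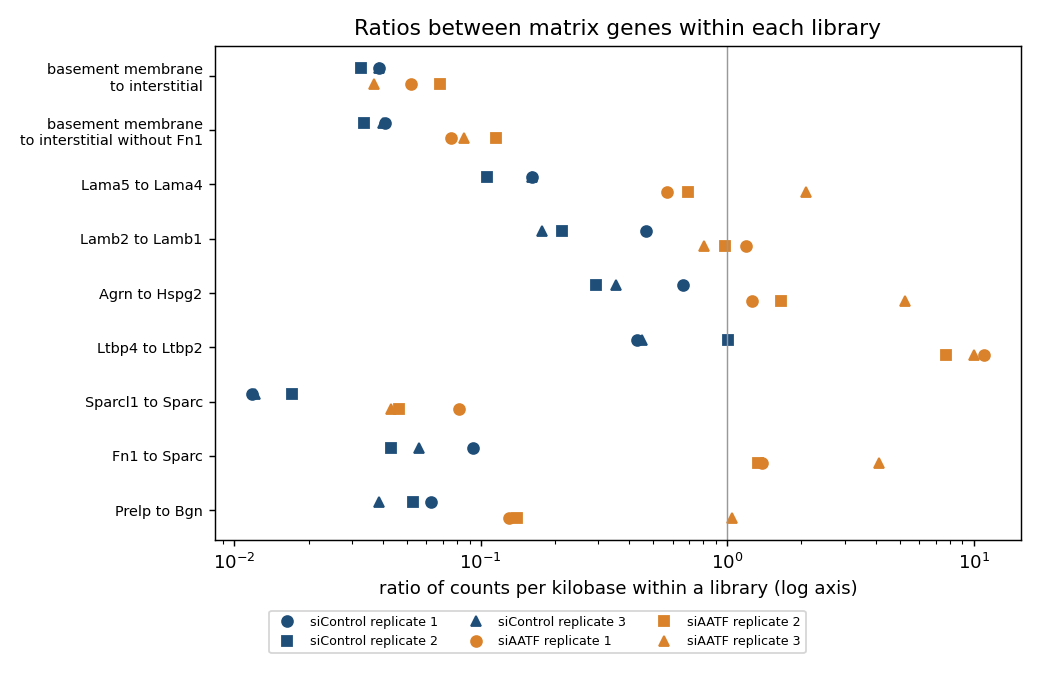
Ratios of counts per kilobase between matrix genes within each library (log axis), 1 point per library, with a line at equal levels; no scaling between libraries enters. The basement membrane to interstitial ratio overlaps between siControl and siAATF, while in the other rows the siAATF points lie to the right of the siControl points, as for Ltbp4 to Ltbp2 (0.431 to 1.01 against 7.72 to 11).

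Scaled to the human and mouse total of each library, the matrix genes summed to 245, 129 and 293 CPM under siControl and to 778, 337 and 995 CPM under siAATF. Much of this difference was Fn1, at 30.6, 9.39 and 24.6 CPM in siControl and 417, 203 and 756 CPM in siAATF. The interstitial genes without Fn1 overlapped on this scale, at 182 ± 67.6 CPM in siControl and 196 ± 97.2 CPM in siAATF (SD, n = 3). The basement membrane genes were at 19.1 ± 8.04 and 48.6 ± 17.2 CPM (SD, n = 3), with every siAATF library above every siControl library. As a part of the mouse counts, the interstitial genes without Fn1 were 1.28% ± 0.239 in siControl and 0.0198% ± 0.00975 in siAATF, and the basement membrane genes 0.132% ± 0.0227 and 0.00493% ± 0.00171 (SD, n = 3).

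**Figure D5:**
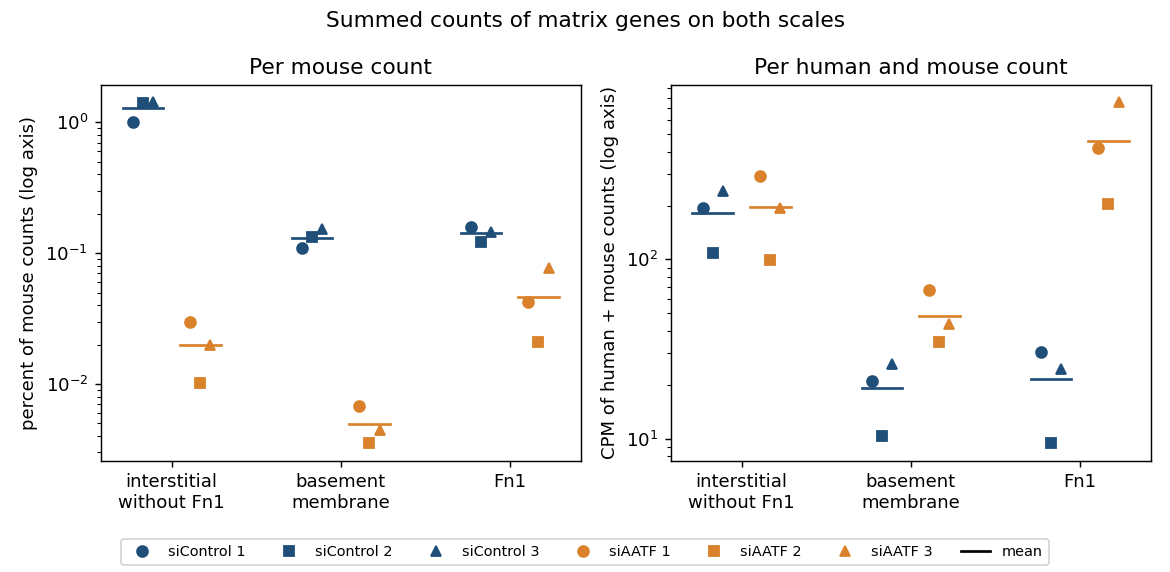
Summed counts of the interstitial genes without Fn1, of the basement membrane genes and of Fn1 in each library, on the left as percent of mouse counts and on the right as CPM of human and mouse counts together (both log axes; points are libraries, lines are means). On the left every siAATF point is below the siControl points of its column; on the right the interstitial genes overlap (182 and 196 CPM on average), and the basement membrane genes and Fn1 are higher in siAATF.

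Other matrix genes, from lists chosen with earlier results of these data known, gave a more mixed picture. Of 39 further glycoproteins and proteoglycans 36 were tested, 15 fell and 4 rose with TMM, with a median of -1.35, and 8 of the 15, Lum among them, turned with human and mouse counts together. Among those that fell were Tnc, tenascin-C of remodelled tissue (log2FC -7.25), Srgn, a proteoglycan of blood cell granules (-5.69), Postn, periostin (-5.57), and Ccn2, a target of TGF-β (-5.43). The 4 that rose were Vtn, vitronectin, a plasma protein of hepatocytes (3.96), Smoc1 (2.84), and the cell surface proteoglycans Sdc2 (2.72) and Sdc4 (2.21). Dcn, decorin, did not pass at 438, 574 and 765 CPM under siControl and 359, 314 and 254 CPM under siAATF (log2FC -0.94, adjusted p = 0.144), whereas its relative Lum, lumican, fell by 3.51. Of the 8 basement membrane collagen genes 5 fell and 1 rose, and Col4a5 and Col4a6 among the 5 turned on that scale. Col4a1 and Col4a2, the chains that nidogens join to laminin, fell, with log2FC of -4.78 and -5.18, and Col18a1, which hepatocytes also make, rose by 2.57 from 169, 79.6 and 108 CPM to 655, 504 and 974 CPM. Of 10 receptors of laminin and fibronectin 5 fell and 1 rose, and all of the 5 but Itga6 turned on that scale. Itga6, a laminin receptor chain, fell by 4.37 and Itgb1, the shared beta chain, by 1.55, and Sdc4 was the one that rose.

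With TMM, markers of several cell types fell beside the matrix genes, those of hepatocytes rose, and other lists were mixed. Their part in these results was not tested. Hepatocyte markers (7 of 8 found by name, 6 higher) summed to 4123 to 9988 CPM under siControl and 35055 to 145774 CPM under siAATF. All 10 activated fibroblast markers fell with TMM (4 of them turned with human and mouse counts together), from 8193 to 11939 CPM in siControl to 70.9 to 169 CPM in siAATF, as did 5 of 6 vascular endothelial markers (503 to 729 CPM against 54.5 to 141 CPM), 4 of 5 pericyte and smooth muscle markers (204 to 215 CPM against 107 to 132 CPM) and 4 of 5 macrophage markers (857 to 1748 CPM against 62.3 to 137 CPM). Of the 6 quiescent stellate cell markers 1 fell and 1 rose (109 to 140 CPM against 51.4 to 97.7 CPM). The lower sum followed Des, at 69.8, 111 and 74.1 CPM in siControl and 15.1, 9.47 and 6.7 CPM in siAATF. Colec11 rose from 4.01, 4.83 and 6.13 CPM to 23.1, 9.87 and 15.7 CPM, and Reln, Lrat, Hgf and Ngfr did not pass. Of the 5 sinusoidal endothelial markers 2 fell and 1 rose (152 to 277 CPM against 69.3 to 162 CPM). Of the 4 cholangiocyte markers 1 fell and the others did not pass (16.9 to 38.5 CPM against 31.6 to 41.3 CPM), and of the 3 mesothelial markers 1 fell (2.41 to 20.9 CPM against 0.896 to 18.6 CPM). Adipoq, Plin1, Ckm and Myh4, markers of fat and muscle, were too low to be tested. With human and mouse counts together, 3 of the 5 vascular, 3 of the 4 pericyte and 1 of the 4 macrophage markers that fell turned, as did those that fell among the stellate, sinusoidal, cholangiocyte and mesothelial markers.
The matrix sums were also set against these markers within each library. The counts of the interstitial genes without Fn1 per count of the activated fibroblast markers were 0.612 to 0.691 in siControl and 2.58 to 4.62 in siAATF, without overlap. The counts of the basement membrane genes per count of the vascular endothelial markers were 0.934 to 1.22 in siControl and 0.714 to 1.57 in siAATF, which overlapped. Both ratios were chosen after the values were seen.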

How the data were processed

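Gene counts of 6 liver libraries, 3 siControl and 3 siAATF, were used. According to the methods and the submitters' processing notes, the authors aligned SMART-Seq reads with STAR 2.7.11 to a joined human and mouse reference, dropped reads placed in several sites or in both species, and counted genes with featureCounts 2.0.1. The deposited values are raw counts per gene, not normalized. Stretches conserved between the species therefore lose reads, and the strand setting of the counting is not given in the sources used here. Gene names came from gencode M39 (the authors counted on M33), and 561 of 56884 mouse identifiers stayed unnamed. No count column was left unassigned (0). Coordinates of genes are those of the deposited table, and promoter windows those of RefSeq (GRCm38.p6). Promoters of Eln, Fbn2, Fn1, Lama4, Lamc1, Matn2, Mfap4, Mfap5, Mgp, Nid2, Sparcl1 and Thbs1 were not in that table.

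Mouse genes reaching 10 counts over the 6 libraries were tested together with the quasi-likelihood test of edgeR 4.0.16 (R 4.3.3) with TMM, with p adjusted by Benjamini-Hochberg and a threshold of 0.05. The members and lists were chosen with earlier results of these data known. Libraries were grouped by their labels. Values per library are given for the 3 largest falls of each role and for every member that did not pass, and others were added where they helped. Alternatives were DESeq2 1.42.0, limma-voom (limma 3.58.1), RLE and upper-quartile scaling, library size of mouse or of all gene counts, 3 other filters, thinning, a replicate block and leaving out each library. The test was checked on simulated counts.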

Additional observations from a re-analysis of the deposited data

How the results depend on the processing

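The count of 33 lower members was 33 with RLE, filterByExpr, no filter, DESeq2 and limma-voom, 34 with upper-quartile scaling, 38 with mouse library size alone, 32 by the criteria of the study and 27 of the 32 members tested after thinning, where Fbn2, Mfap2 and Ltbp1 were lost and Prelp was added. Mfap5, Thbs3, Matn2 and Lama2, called lower without thinning, were then too low to be tested. Leaving out 1 library gave 27 to 33 lower (interstitial 20 to 24, basement membrane 7 to 9), lowest without siControl replicate 3, and 0 higher. Without siAATF replicate 1 the log2 fold changes of several lower members grew, to -3.31 for Eln, -3.69 for Fbln1, -5.74 for Mfap4, -2.83 for Ltbp1, -6.69 for Ltbp2, -2.66 for Ltbp4, -5.64 for Thbs2, -4.03 for Matn2 and -3.73 for Mgp. A minimum of 10 counts in every library left 15 members, of which 12 were lower (interstitial 7, basement membrane 5), fewer because fewer were tested. Replicate numbers do not pair the libraries: same-numbered libraries deviated together with r of 0.145, 0.212 and -0.0229, and not every library correlated best with its own number. The replicate block gave 34 lower, with Prelp added (-1.55).

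Scaled to all gene counts, human and mouse, 3 members were lower (interstitial 3, basement membrane 0) and 15 higher, and the log2 fold changes that turned were 1.68 for Eln, 1.65 for Emilin1, 2.17 for Fbln1, 3.82 for Fbln5, 3.58 for Efemp1, 0.47 for Efemp2, 0.13 for Mfap2, 0.75 for Mfap4, 2.21 for Ltbp1, 0.79 for Ltbp3, 2.47 for Ltbp4, 1.62 for Sparcl1, 1.10 for Thbs3, 1.25 for Matn2, 1.63 for Mgp, 0.38 for Tgfbi, 0.46 for Bgn, 1.82 for Fmod, 3.38 for Prelp, 1.29 for Hspg2, 3.43 for Agrn, 0.61 for Nid1, 1.41 for Nid2, 1.79 for Lama2, 2.01 for Lama5, 1.88 for Lamb2 and 0.85 for Lamc1. By construction this scale follows the human share of each library. Fn1 turned with upper-quartile scaling (-0.12), mouse library size (-1.61) and thinning (-0.35), and ranged from -0.37 to 0.53 over the fits that left out a library. That range was -1.83 to 0.33 for Fbln5 and -1.18 to 0.03 for Efemp1, and the cause was not tested.

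The log2 difference of the basement membrane to interstitial ratio (0.48) was 0.26 without siAATF replicate 2 and 0.71 without siAATF replicate 3, the lowest and highest of the values with 1 library left out. It was 1.25 without Fn1, -0.23 without division by length, -0.29 without Sparc and Nid1, and -1.91 with 5 glycoproteins moved. Few counts limit the lowest genes, as 10 members had at most 3 counts in at least 1 siControl library and 10 in at least 1 siAATF library.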
